A study of Mus musculus with 6 samples.

Results

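The 10 genes described here encode feedback inhibitors of the ERK kinase cascade and a pair of ETS transcription factors that the cascade switches on. They were chosen by symbol among probe sets carrying exactly 1 gene symbol: the phosphatase genes Dusp4, Dusp5 and Dusp6, the Sprouty genes Spry1, Spry2 and Spry4, the Sprouty-related genes Spred1 and Spred2, and Etv4 and Etv5. All 10 were found among the 22180 genes measured. Growth factor receptors pass their signal through RAS, RAF and MEK to ERK, which enters the nucleus and turns on genes, among them those of its own inhibitors. Sprouty and Spred proteins hold back the signal between receptor and RAF, and the dual-specificity phosphatases take the phosphates off ERK itself. Because their mRNAs follow ERK activity in many tissues, these genes are often read together with Etv4 and Etv5 as the output of the pathway, and in blood vessels Sprouty and Spred proteins are known to restrain the response to VEGF and FGF.

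The 6 arrays came from 6 mice, 3 with Tie2-Cre (mice 1, 3 and 4) and 3 without Cre (mice 6, 7 and 10). Mice of both groups had Pfn1 fl/fl and the Y129F form of profilin-1, an actin-binding protein, so the groups differ in the labels by the Cre transgene alone. Tie2-Cre is named for the Tie2 gene, which is used in endothelial cells and also in part of the blood cell lineage. The cells were obtained from gliomas by magnetic sorting for CD105, the product of Eng, and then exposed for 12 h to glioma-conditioned medium; the labels call them tumor-associated endothelial cells. The question of the series is what profilin-1 phosphorylation does to gene expression in such cells. The age and strain of the mice are not given in the sources used here, and neither is how Cre acts on the Pfn1 alleles.

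Levels are log2 of the deposited RMA intensities, and a change is the mean of the Tie2-Cre mice minus that of the mice without Cre; its standard error (SE) comes from limma fitted over all genes. A gene is called higher or lower where its adjusted p was under 0.05. In these bulk samples, fewer cells of a type and less RNA per cell cannot be told apart.

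The samples differed in more than the Cre label. Xist lay at 5.75 ± 0.35 (SD, n = 3 mice) with Tie2-Cre and at 11.35 ± 0.16 (SD, n = 3 mice) without, and 3 Y-linked genes were higher with Tie2-Cre, so the sex of the cells and the genotype cannot be told apart in any comparison below. Pfn1 changed by 0.04 (SE 0.062, limma adjusted p 0.776), on a probe set that does not show the Y129F form. Of 14 endothelial markers, Eng was bright (mean 11.91), while the next brightest had a mean of 7.31 and 12 lay below the median gene level of 7.12, down to 4.27 for Emcn. The mean of the endothelial list was 6.61 to 6.70 with Tie2-Cre and 6.69 to 6.73 without. That of 12 pericyte and smooth muscle markers was 9.83 to 10.10 against 9.35 to 9.41, of 12 fibroblast markers 10.15 to 10.25 against 9.46 to 9.47, and of 12 astrocyte, progenitor and glioma markers (Pdgfra is on this list and on the fibroblast list) 7.13 to 7.18 against 6.89 to 6.93. The 15 microglia and macrophage markers averaged 6.57 to 6.64 against 6.76 to 6.80. These means can rest on few genes: of the fibroblast list 5 genes were called higher, led by Dpt (3.54) and Postn (2.36), Dcn was called lower (-0.76), 6 did not pass, and the median change was 0.09. Calls were 6 higher and 0 lower for the pericyte and smooth muscle list (median 0.41), 3 and 0 for the astrocyte, progenitor and glioma list, 0 and 4 for the microglia and macrophage list, and 0 and 1 for the endothelial list. The endothelial gene called lower was Eng (-0.30, SE 0.064, limma adjusted p 0.0217), whose product was used to sort the cells. Of all genes tested, 4.78% were called higher and 7.17% lower. The part of these shifts in the changes below was not tested.

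The ERK feedback genes moved in both directions. Spry1 and Spry4 were higher with Tie2-Cre and Dusp4 was lower, while the other 7 did not pass the threshold. That is 3 of 10, beside 12.0% of all genes tested (4.78% higher and 7.17% lower). The median change of the 10 was -0.08, with a range from -0.50 to 0.70, and that of all genes was -0.0042. The median size of a change, regardless of sign, was 0.17 for the 10 and 0.11 over all genes. The groups of 3 mice did not overlap in 7 of the 10 genes, against 31.0% of all genes (13.6% higher and 17.5% lower with Tie2-Cre). Those 7 were the 3 Sprouty genes, all higher with Tie2-Cre, and Dusp4, Dusp6, Spred1 and Spred2, all lower.

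**Figure D1:**
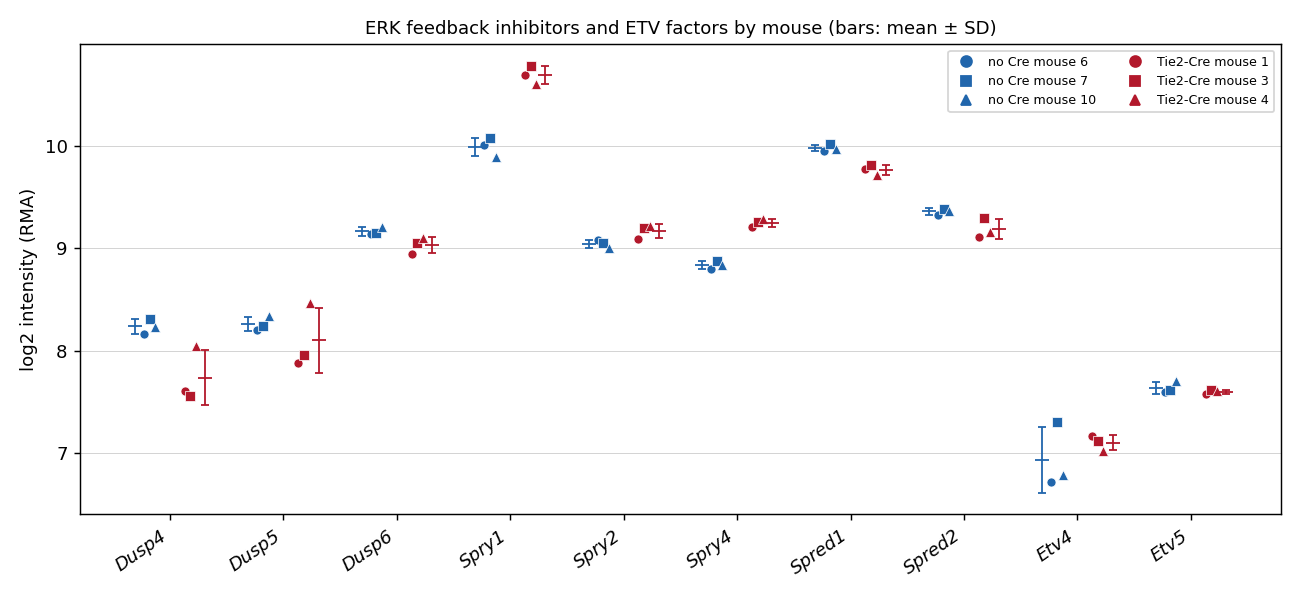
Log2 RMA intensity (vertical axis) of the 10 genes on each array, blue for the 3 mice without Cre and red for the 3 with Tie2-Cre, one symbol per mouse, with bars at the mean ± SD. Spry1 and Spry4 are parted upward, Dusp4 is parted downward with Tie2-Cre mouse 4 nearest to the other group, and Dusp5 and Etv4 each have 1 mouse away from its group.

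The members that rose were Spry1 and Spry4, both Sprouty genes. Spry1, which restrains FGF and GDNF signalling in development, measured 10.70, 10.79 and 10.61 in Tie2-Cre mice 1, 3 and 4, and 10.01, 10.08 and 9.90 in mice 6, 7 and 10 without Cre. The groups were far apart relative to their spread, which had an SD of 0.090 and 0.091. The change was 0.70 (SE 0.080, limma adjusted p 0.00125), or 1.63-fold, with a 95% confidence interval from 0.52 to 0.89. Its size was at rank 685 of the 22180 genes. Spry1 was also the brightest of the 10, at the 92.2nd percentile of gene levels.

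Spry4, which acts on the route from VEGF and FGF receptors to RAF, measured 9.21, 9.26 and 9.29 with Tie2-Cre against 8.80, 8.88 and 8.84 without. All 3 Tie2-Cre mice were above all others, and both groups were tight (SD 0.040 and 0.041, n = 3 mice each). It rose by 0.41 (SE 0.065, limma adjusted p 0.00553), or 1.33-fold. The calls of Spry1 and Spry4 were kept under all 14 alternative settings, with changes of 0.66 to 0.75 and of 0.39 to 0.43.

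Spry2, a Sprouty of epithelia and vessels, measured 9.10, 9.20 and 9.22 with Tie2-Cre and 9.08, 9.05 and 9.00 without. The groups did not overlap, but mouse 1 and mouse 6 were only just apart. Its change of 0.13 (SE 0.068) did not pass (limma adjusted p 0.312), and the 95% confidence interval from -0.03 to 0.28 lies below the change of Spry1.

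The sequence just upstream of the transcription start is shown for Spry1, the gene with the lowest p of the 10, and for Spry2, its relative with the smallest Sprouty change, to set their motifs side by side. Windows of 250 bases ending at the base before the RefSeq start were read from RefSeq (GRCm38.p6), and 8 windows for 7 of the 10 genes were used. No window was used for Dusp4, Spry4 or Etv4, so the counts below do not cover them. Windows on the chromosome of Spry4 were left out of the choice for these genes, but not out of the shares over all genes. The Spry1 window is chr3:37639697-37639946 on the plus strand and that of Spry2 is chr14:105896820-105897069 on the minus strand, each printed 5′ to 3′ with capitals for an octamer bound by Capicua (Cic), a repressor that ERK signalling inactivates.
Spry1: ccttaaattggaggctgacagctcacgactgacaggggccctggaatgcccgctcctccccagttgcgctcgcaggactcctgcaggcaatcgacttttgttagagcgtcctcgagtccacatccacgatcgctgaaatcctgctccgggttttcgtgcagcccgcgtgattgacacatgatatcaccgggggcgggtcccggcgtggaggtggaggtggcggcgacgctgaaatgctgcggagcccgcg
Spry2: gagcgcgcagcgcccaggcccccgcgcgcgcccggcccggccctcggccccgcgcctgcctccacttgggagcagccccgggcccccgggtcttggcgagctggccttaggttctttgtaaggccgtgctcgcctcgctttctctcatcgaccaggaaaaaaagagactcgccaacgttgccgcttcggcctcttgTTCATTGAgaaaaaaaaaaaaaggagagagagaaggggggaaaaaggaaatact
The octamers searched on both strands were TGAATGAA, TGAATGGA, TCAATGAA and TCAATGGA, found in 3.19% of 32851 windows of all genes and in 2 of the 8 of these genes. Spry2 holds TCAATGAA on the opposite strand, 54 to 47 bases before the start, and the Spry1 window holds none of the 4. The ETS site in the form CCGGAA (in 12.0% of all windows), the AP-1 sites TGAGTCA and TGACTCA (4.46%) and the CRE TGACGTCA (1.55%) were in 0 of the 8 windows. Other forms of the ETS site, such as a bare GGAA, were not searched, so the windows may hold them. The GC box GGGCGG (32.7%) was in 5 of the 8, Spry1 among them. These matches describe letters only and say nothing about binding.

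Spred genes leaned the other way without passing. The proteins bind RAS and, with neurofibromin, favour its inactive form. Spred1 measured 9.78, 9.82 and 9.72 with Tie2-Cre and 9.96, 10.02 and 9.97 without. Every Tie2-Cre mouse was below every mouse without Cre. The change was -0.21 (SE 0.065, limma adjusted p 0.0798). It passed with eBayes set to trend and robust (adjusted p 0.0218) and with the dimmest 33.3% of genes left out (0.0370), within 0.0218 to 0.211 over its alternatives.

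Spred2 measured 9.12, 9.30 and 9.16 with Tie2-Cre against 9.33, 9.39 and 9.37 without. Again the groups did not overlap, with mouse 3 close to the other group. Its change was -0.17 (SE 0.073, limma adjusted p 0.195).

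**Figure D2:**
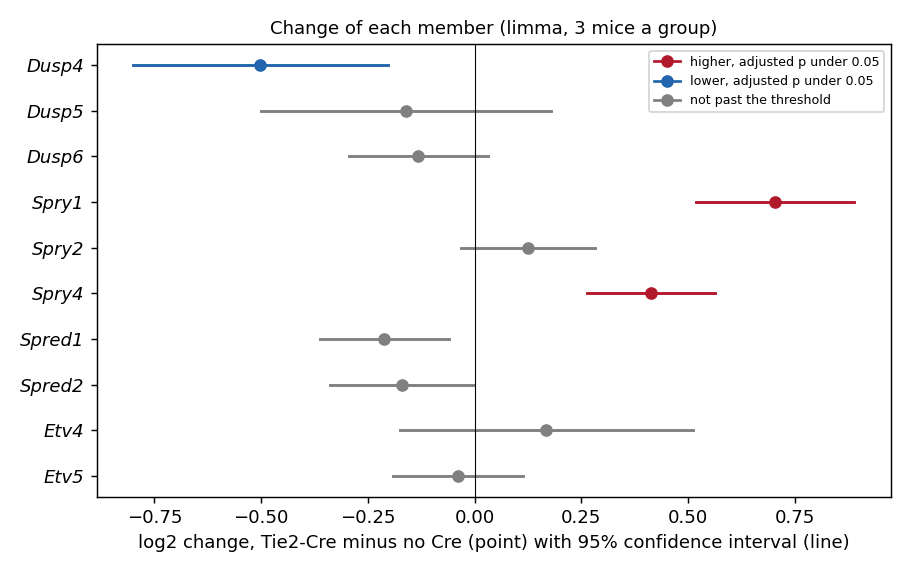
Log2 change of each of the 10 genes, Tie2-Cre minus no Cre (horizontal axis), as a point with its 95% confidence interval from limma on 3 mice a group. The intervals of Spry1 (0.52 to 0.89) and Spry4 (0.26 to 0.56) lie above 0 and that of Dusp4 (-0.80 to -0.20) below it, and those of Spred1 and Spred2 also lie below 0 although neither passed after adjustment.

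Of the ERK phosphatases, Dusp4 was lower with Tie2-Cre. Dusp4, a nuclear phosphatase of ERK and related kinases, measured 7.61, 7.55 and 8.05 in Tie2-Cre mice 1, 3 and 4, and 8.17, 8.31 and 8.23 in mice 6, 7 and 10. The groups did not overlap, but mouse 4 came within reach of the mice without Cre. The change was -0.50 (SE 0.13, limma adjusted p 0.0433), a 1.42-fold lower level, with a 95% confidence interval from -0.80 to -0.20. This call was fragile. It was lost on leaving out Tie2-Cre mouse 1 (-0.44, adjusted p 0.131), Tie2-Cre mouse 3 (-0.41, 0.124), or mouse 6 (-0.54, 0.0825), 7 (-0.46, 0.131) or 10 (-0.50, 0.114) without Cre, and with the probe sets lacking a single symbol added (0.108). It was -0.66 (adjusted p 0.0032) without Tie2-Cre mouse 4.

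Dusp5, a nuclear phosphatase with a strict preference for ERK, showed the same mouse apart. It measured 7.88, 7.95 and 8.47 with Tie2-Cre against 8.20, 8.24 and 8.34 without, so that mice 1 and 3 were below and mouse 4 above all mice without Cre. Its change was -0.16 (SE 0.15, limma adjusted p 0.577). With Tie2-Cre mouse 4 left out it was -0.34 (SE 0.079) and passed (adjusted p 0.0402), and without mouse 1 it was -0.05. The SD of Dusp4 and Dusp5 among Tie2-Cre mice (0.27 and 0.32) stood at percentiles 94.3 and 97.1 of all genes, and among mice without Cre at 39.7 and 37.2. Over the 10 genes, mouse 4 was the highest of the Tie2-Cre mice in 5, mouse 3 in 4 and mouse 1 in 1, and mouse 7 was the highest without Cre in 6. Among the Tie2-Cre mice, mouse 4 also had the highest mean of the pericyte and smooth muscle list (10.10). The same held for the endothelial list (6.70) and the astrocyte, progenitor and glioma list (7.18). Its mean of the fibroblast list (10.15) was the lowest of the Tie2-Cre mice. The part of these marker means in the Dusp4 and Dusp5 values was not tested.

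Dusp6, the cytoplasmic phosphatase that binds ERK and is among its most used readouts, measured 8.95, 9.05 and 9.11 with Tie2-Cre and 9.14, 9.15 and 9.21 without. The groups did not overlap by a small margin. Its change of -0.13 (SE 0.071) did not pass (limma adjusted p 0.306). A dimmer probe set of Dusp6, with means of 5.19 and 5.09, changed by 0.10 (SE 0.12, adjusted p 0.676 over all single-symbol probe sets), and the mean of both gave -0.01.

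The upstream windows of Dusp5 and Dusp6 are shown because they hold the CArG matches and the other Capicua match among the 8 windows. Dusp5 (chr19:53528895-53529144, plus strand, GRCm38.p6) has adjoining matches to the CArG box, the motif of the factor SRF, 82 to 63 bases before the start, in capitals. Dusp6 (chr10:99262981-99263230, plus strand) has a Capicua octamer, TCAATGGA on the opposite strand, 24 to 17 bases before the start, also in capitals.
Dusp5: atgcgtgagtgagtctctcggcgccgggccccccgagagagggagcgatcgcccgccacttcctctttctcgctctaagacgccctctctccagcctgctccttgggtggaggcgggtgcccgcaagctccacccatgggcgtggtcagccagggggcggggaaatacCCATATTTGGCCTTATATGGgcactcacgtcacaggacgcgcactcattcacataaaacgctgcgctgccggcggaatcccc
Dusp6: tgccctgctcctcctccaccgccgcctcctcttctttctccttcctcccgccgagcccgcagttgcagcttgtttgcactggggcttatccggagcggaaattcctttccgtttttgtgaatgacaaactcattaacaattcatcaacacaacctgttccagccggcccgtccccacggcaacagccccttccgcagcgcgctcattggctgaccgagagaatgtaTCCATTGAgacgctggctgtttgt
A CArG box, searched on both strands, was found in 1.47% of all windows and in 1 of the 8. Like those above, the matches in Dusp5 and Dusp6 describe letters only and say nothing about binding.

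The ETV factors did not pass. Etv4, a PEA3-group activator of migration and branching genes, measured 7.17, 7.11 and 7.02 with Tie2-Cre and 6.71, 7.30 and 6.78 without. Mouse 7 was above all Tie2-Cre mice and mice 6 and 10 were below them, and the SD without Cre (0.32) stood at percentile 97.8 of all genes. The change was 0.17 (SE 0.15, limma adjusted p 0.559), and it depended on single mice: 0.35 without mouse 7 (adjusted p 0.0540), 0.06 without mouse 6 (0.876) and 0.09 without mouse 10 (0.815). Etv5, its close relative, measured 7.58, 7.62 and 7.60 against 7.59, 7.61 and 7.71. These groups overlapped and were nearly level, with a change of -0.04 (SE 0.066, limma adjusted p 0.788) and a 95% confidence interval from -0.19 to 0.11. Its dimmer probe set changed by 0.10 (SE 0.14), and the mean of both gave 0.03 (adjusted p 0.894), which turned the sign.

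The profile over the 6 arrays that lay nearest to Spry1 was that of Kirrel, followed by Camk2a and Gnai1, with root mean square differences of 0.038, 0.043 and 0.048 log2 after centring each gene on its mean. Symbols that are Gm-numbered, end in Rik, or mark pseudogenes, microRNAs or small nucleolar RNAs were left out of the search for near profiles. Nearest to Dusp4 were Smpd3, Sema3d and Dmd, at 0.048, 0.050 and 0.050. Of these, Sema3d was called lower, while Smpd3 (-0.46) and Dmd (-0.45) did not pass the threshold. The 6 arrays form 2 groups, so any gene with a like gap between them comes near on this measure.

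Other relatives and feedback inhibitors were split as well. Among 22 of them, 3 calls were upward and 3 downward, 16 genes did not pass, and the median change was -0.02. This count and those of the lists below stand beside 4.78% of all genes called higher and 7.17% called lower. Higher were the JNK and p38 phosphatase gene Dusp8 (0.51, SE 0.083, limma adjusted p 0.00631), Dusp7, like Dusp6 the gene of a cytoplasmic ERK phosphatase (0.42, SE 0.076), and the RAS GTPase activator Dab2ip (0.28, SE 0.063). The fourth Sprouty gene, Spry3, changed opposite to Spry1 and Spry4, from 7.55 ± 0.080 (SD, n = 3 mice) without Cre to 6.78 ± 0.27 (SD, n = 3 mice) with Tie2-Cre (-0.77, SE 0.13, limma adjusted p 0.00729). Its probe set is numbered between those of the sex-linked genes Xist and Kdm5d, but a probe set number does not itself give a chromosome. The part of the sex of the cells in the Spry3 change was not tested. Errfi1, the feedback inhibitor of EGF receptors, changed by -0.53 (SE 0.11) and the JNK phosphatase gene Dusp16 by -0.34 (SE 0.076). The third PEA3-group gene, Etv1, changed by -0.02 (SE 0.076, adjusted p 0.908), the third Spred gene, Spred3, by -0.24 (SE 0.11, adjusted p 0.249), and the early response phosphatase Dusp1 by 0.05 (SE 0.15, adjusted p 0.879), all 3 named after their values were seen.

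Within the cascade, 19 genes gave 2 upward and 2 downward calls, with 15 short of the threshold and a median of 0.03. The adaptor Pea15a, which keeps ERK in the cytoplasm, rose by 0.44 (SE 0.081, limma adjusted p 0.0112) and the scaffold Ksr1 by 0.42 (SE 0.083). The MEK gene Map2k1 changed by -0.35 (SE 0.082, limma adjusted p 0.0315) and the phosphatase Ptpn11, which relays receptor signals to RAS, by -0.27 (SE 0.063). The other 8 genes on the list were not analysed here.

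Receptors and ligands stand upstream of the cascade. The 22 receptor genes held 4 upward and 2 downward calls, 16 short of the threshold, and a median of 0.04. The PDGF receptor Pdgfra rose by 1.65 (SE 0.13, limma adjusted p 0.000253), the FGF receptor Fgfr2 by 1.06 (SE 0.097), the VEGF receptor Flt1 by 1.11 (SE 0.25) and Pdgfrb by 0.27 (SE 0.064). Lower were the CSF1 receptor Csf1r (-0.42, SE 0.068) and Fgfr1 (-0.34, SE 0.085). Pdgfra, Pdgfrb and Csf1r also stand on the marker lists above.

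For 27 ligand genes there were 9 upward (33.3%) and 7 downward (25.9%) calls, 11 short of the threshold, and a median of 0.04. Over all genes 4.78% were called higher and 7.17% lower. Among the higher were 3 FGF genes, Fgf18 (1.49, SE 0.13), Fgf10 (0.92, SE 0.080, limma adjusted p 0.000399) and Fgf1 (0.54, SE 0.081), and Vegfb (0.42, SE 0.064). Among the lower were stem cell factor Kitl (-2.14, SE 0.076, limma adjusted p 6.45e-06), the EGF receptor ligand Ereg (-1.48, SE 0.074), Igf1 (-1.13, SE 0.10) and Pdgfd (-1.11, SE 0.11).

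**Figure D3:**
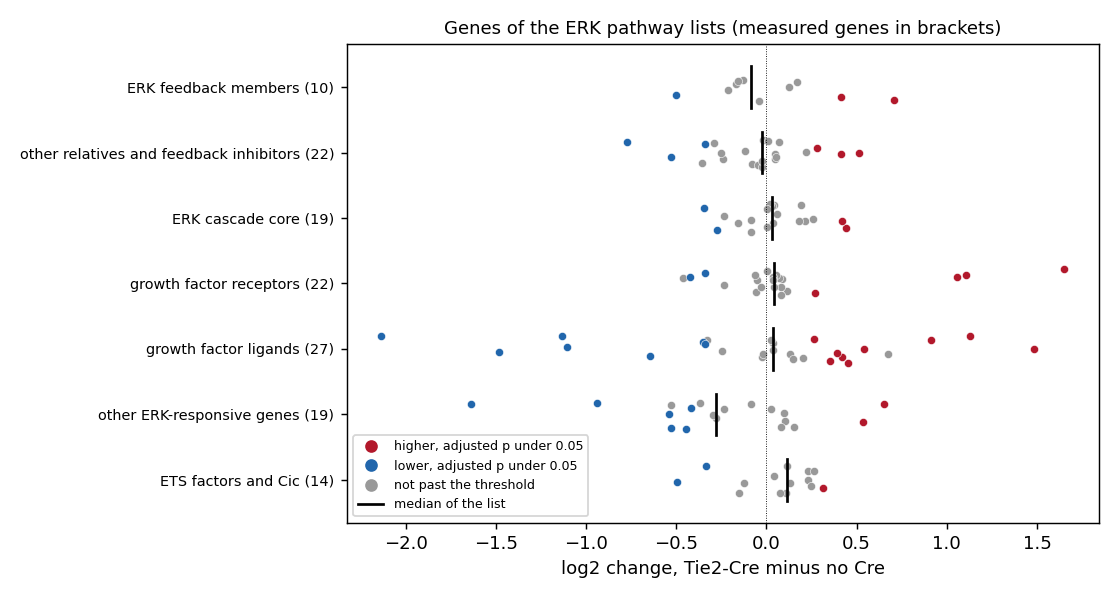
Log2 change, Tie2-Cre minus no Cre (horizontal axis), of each measured gene of the 10 feedback and ETV genes and of 6 further lists, with the number measured in brackets and a black line at each median; vertical scatter within a row has no meaning. Calls lie on both sides of 0 in every list, and the other ERK-responsive genes have the lowest median, -0.28.

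Other genes that respond to ERK held 6 downward and 2 upward calls among 19, with 11 short of the threshold and a median of -0.28. Over all genes 7.17% were called lower and 4.78% higher, with a median of -0.0042. Lower were the ephrin receptor Epha4 (-1.64, SE 0.21, limma adjusted p 0.0021), the stress-induced survival gene Ier3 (-0.94, SE 0.11, adjusted p 0.00148), the proto-oncogene Myc (-0.53, SE 0.076) and the early response gene Phlda1 (-0.42, SE 0.070). Ier3 fell from 13.02 ± 0.034 (SD, n = 3 mice) to 12.08 ± 0.22 (SD, n = 3 mice). Cyclin D1 (Ccnd1, 0.54, SE 0.070, limma adjusted p 0.00223) and the urokinase receptor Plaur (0.65, SE 0.082) were higher. The immediate early genes Egr1 (-0.30, SE 0.098, limma adjusted p 0.0953) and Fos (-0.28, SE 0.086, adjusted p 0.0806), named after their values were seen, did not pass. Among others of this kind on the list, Egr2 (-0.37), Egr3 (-0.23) and Fosb (-0.09) had negative changes. Junb (0.02) and Ier2 (0.08) had positive ones, and none of these passed either. Many of these genes also answer to other pathways. In the same Tie2-Cre mice the microglia and macrophage marker mean was lower, with 4 of 15 called lower and a median change of -0.05. The brightest gene of that list had a mean of 7.85. The means of the pericyte, fibroblast and astrocyte lists were higher in these mice. The part of these marker shifts was not tested.

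**Figure D4:**
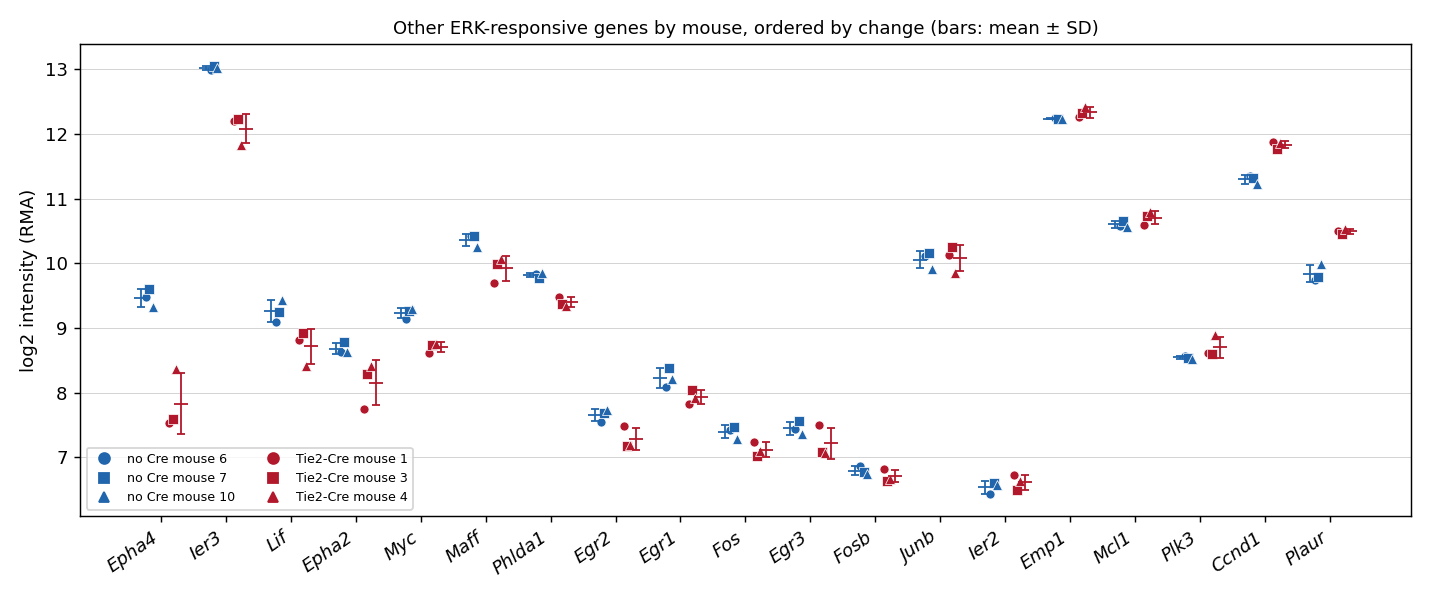
Log2 RMA intensity (vertical axis) of 19 further ERK-responsive genes by mouse, blue without Cre and red with Tie2-Cre, ordered from the lowest to the highest change, with bars at the mean ± SD. All Tie2-Cre mice lie below all mice without Cre in 10 of the 19 genes and above them in 4, beside 17.5% and 13.6% of all genes.

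The list of ETS factors and Cic, 14 genes, gave 1 upward and 2 downward calls, 11 short of the threshold, and a median of 0.11. Cic, the repressor named above, which also acts on Etv4 and Etv5, rose by 0.31 (SE 0.064, limma adjusted p 0.0170), from 8.86 ± 0.036 (SD, n = 3 mice) to 9.17 ± 0.030 (SD, n = 3 mice). The ETS factors Fli1 (-0.50, SE 0.079, limma adjusted p 0.00578) and Gabpa (-0.34, SE 0.078) were lower. Of the 33 pathway genes named by rule in these lists, 22 kept their call under all 14 alternatives. The calls of Dab2ip and Ptpn11 were lost on leaving out any 1 mouse, that of Ksr1 without Tie2-Cre mouse 1 (adjusted p 0.0529), and that of Cic without Tie2-Cre mouse 1 or 3 or mouse 6 or 7 without Cre (adjusted p 0.0523 to 0.0696). Calls of Flt1 and Errfi1 were lost only in settings that left out a mouse without Cre (any of the 3 for Flt1, 7 or 10 for Errfi1) or that added probe sets without a single symbol. Dusp16, Fgfr1, Gabpa, Map2k1 and Pdgfrb each lost theirs on leaving out any of 4 or 5 of the mice, and, like Dab2ip and Ptpn11, with the probe sets lacking a single symbol added.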

How the data were processed

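Each mouse gave 1 Affymetrix Mouse Gene 2.0 ST array. The authors deposited linear intensities (5.13 to 17822), which per the labels are RMA values from Expression Console; its version and a genome build are not given in the sources used here. RMA corrects background and normalizes by quantiles, and only log2 was taken here. No detection calls came with the values, and the change of a dim gene is understated.

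Of 41345 probe sets, 23521 had 1 gene symbol in the array annotation, 1814 several, and 16010 were not listed; the brightest of a gene's probe sets was used (22180 genes). Groups were compared with limma 3.58.1 in R 4.3.3 (lmFit, eBayes, two-sided) with Benjamini-Hochberg adjustment over all genes. Precision is limited by having 6 arrays: the median SD was 0.10 log2 with Tie2-Cre and 0.089 without Cre. The fit was tested on simulated data. Nothing says whether mice were handled together; p-values measure the spread between these mice.

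Members, pathway lists and markers were chosen with earlier results of these data known. Named were all members and up to 4 genes per list and direction with the smallest p among those past the threshold. Also named were the 3 nearest profiles of the members with the smallest p in each direction, outside the kinds of symbol left out above. Alternatives were added probe sets, a minimum mean log2 of 5, the dimmest 33.3% left out, quantile normalization again, centring, mean of probe sets, trend and robust eBayes, array weights, and leaving out each mouse. Sequences are from RefSeq.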

Additional observations from a re-analysis of the deposited data

How the results depend on the processing

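The 2 higher calls, Spry1 and Spry4, stayed at 2 of the 10 under all 14 alternatives. The lower count was 1 and moved to 0 with the 17824 probe sets without a single symbol added, to 2 with the dimmest 33.3% left out and 2 with eBayes with trend and robust (Spred1 joining Dusp4), and ran from 0 to 2 when each mouse was left out. Etv5 reversed to 0.030 with the mean of its probe sets, since its dimmer probe set had the opposite sign. Over all genes, higher calls ran from 634 to 1403 and lower ones from 910 to 2121. Among the lists, lower calls of the ERK-responsive genes ran from 4 to 9 and higher ones stayed at 2, while higher calls of the ETS factors and Cic ran from 0 to 4 and lower ones from 1 to 2. Cascade calls ran from 1 to 5 higher and 0 to 3 lower, receptor calls from 2 to 4 and 1 to 3, ligand calls from 6 to 11 and 6 to 8, and those of other relatives and feedback inhibitors from 2 to 4 and 1 to 4. No paired analysis was made, because the labels name no pairs of mice between the groups. With 3 mice a group the change of Spred1, -0.21, was called or missed depending on the setting.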
